A study of Drosophila melanogaster with 3 samples.

Results

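The genes described here encode the 3 ELAV family RNA-binding proteins of Drosophila (elav, fne and Rbp9), the cholinergic pair ChAT and VAChT, and the synaptic proteins nSyb, Syt1, brp and cpx. They were listed by name, 9 genes of the 13945 protein-coding genes annotated on the 6 main chromosome arms. Binding was that of the Pax-family transcription factor shaven (sv), measured by chromatin immunoprecipitation and sequencing (ChIP-seq) with an antibody against GFP. All chromatin came from a single transgenic line that stably expresses the RD isoform of sv with GFP at its C-terminus, from whole larvae of mixed sex, at the wandering phase of the third instar, in 1 group of 3 biological replicates. The labels give neither the promoter of the transgene nor the state of the native sv gene, and no other genotype, stage or treatment was part of the design. The values are therefore descriptions, with no test between conditions. A peak's summit is its point of highest signal, and a peak's rank is its place by signal within its own list, 1 being the strongest. The authors' optimal set, thresholded on reproducibility between replicates, held 3823 peaks with signals of at least 72.6. It consisted of the strongest peaks of a pooled relaxed list of 30000, which contains background. Of these 3823 summits, 5 lay in 5 of the 9 genes or within 2 kb either side.

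ELAV proteins bind RNA through RNA recognition motifs and act on splicing and polyadenylation in neurons. elav is the standard marker of postmitotic neurons in the fly, and fne and Rbp9 are its paralogs. ChAT synthesises acetylcholine, the main excitatory transmitter of the fly central nervous system, and VAChT loads it into synaptic vesicles. At the presynaptic terminal brp, the fly relative of ELKS/CAST, builds the active zone. nSyb is the vesicle SNARE, Syt1 the calcium sensor for fusion, and cpx (complexin) a regulator of the assembled SNARE complex. sv is known for roles in eye development and in the bristle lineage. In chromatin of whole larvae, binding in fewer cells and weaker binding in each cell cannot be told apart, and no expression was measured to check which cells were present.

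Summits at the 9 genes were unevenly spread. elav held 2 optimal summits, fne and nSyb held 1 each, and ChAT and VAChT shared 1, while Rbp9, Syt1, brp and cpx held none. The share of genes with a summit was 5 of 9 (55.6%), against 32.8% of all protein-coding genes by the same rule. All 9 genes belonged to the longest quartile of genes (median span 24384 bp, against 2166 bp over all protein-coding genes), and in that quartile 47.2% of genes held a summit. A summit whose nearest protein-coding start was the gene's own was present at elav and fne alone, 2 of 9, against 18.5% of all protein-coding genes and 33.3% of the longest quartile. elav was the single gene of the 9 with an optimal summit within 500 bp of one of its own starts, against 19.5% of all protein-coding genes and 26.2% of the longest quartile. With so few genes these shares are not read as a difference from the background, and the values that follow describe single genes.

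**Figure D1:**
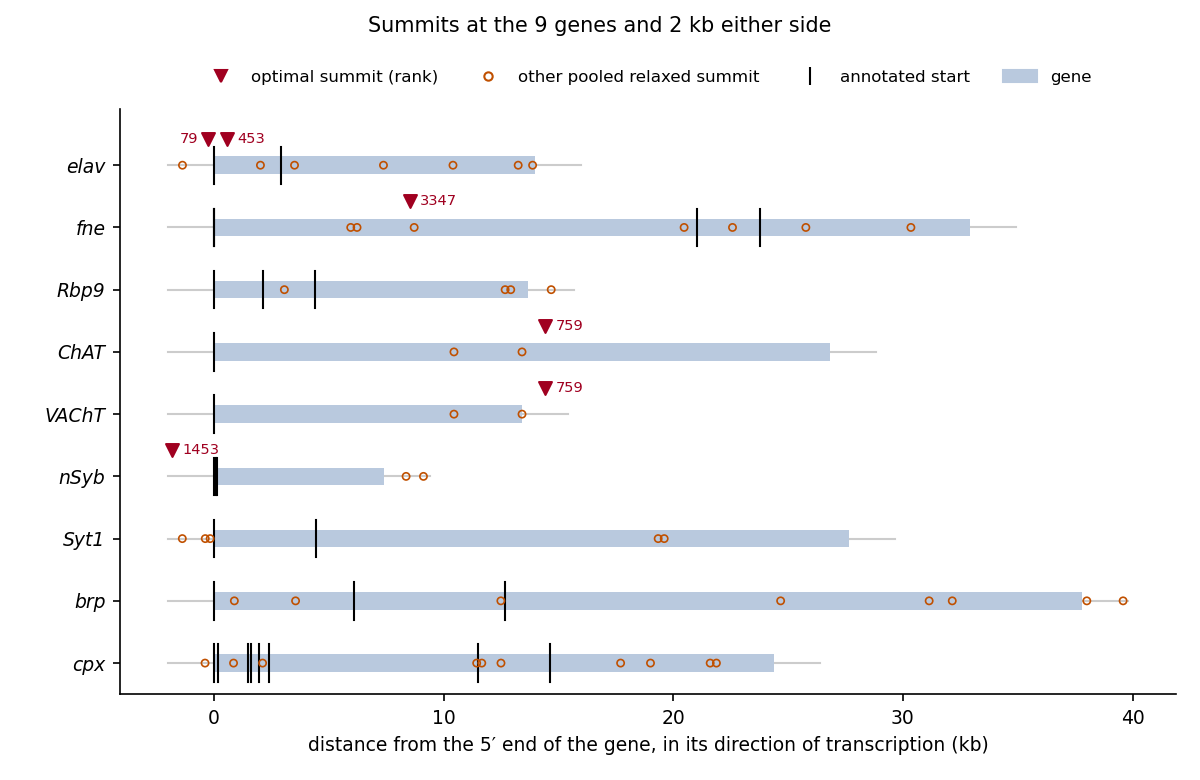
Map of the 9 genes and 2 kb either side, with distance from the 5′ end of each gene in kb on the x axis. Filled triangles are optimal summits with their ranks, open circles the other summits of the pooled relaxed list, black ticks annotated starts of protein-coding transcripts and bars the genes; the 2 strongest summits flank the start of elav, and Rbp9, Syt1, brp and cpx carry open circles alone.

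elav (FBgn0260400, X from 509235 to 523226, minus strand; positions here are on dm6) had the strongest summit of the 9 genes. The peak spanned 523305 to 523679, and its summit at 523477 was 251 bp upstream of the start that elav shares with the non-coding gene lncRNA:enrr. It ranked 79 in the optimal set, and it ranked 57, 159 and 86 in replicates 1, 2 and 3, with replicate summits at most 10 bp away. Of all protein-coding genes, 1.15% had a stronger best peak in the pooled relaxed list by the same window, and of the longest quartile 1.98%. The second summit lay 836 bp away at 522641, in the first intron 585 bp downstream of the same start, and ranked 453. Its ranks were 1001, 272 and 335 in replicates 1, 2 and 3. The balance of the pair varied between replicates: the upstream signal was 3.43, 1.26 and 1.81 times the intronic one in replicates 1, 2 and 3 (mean 2.17 ± 1.13, SD, n = 3), against 2.07 in the pooled list. The upstream summit was the stronger of the pair in all 3 replicates. Both peaks were narrower than the median optimal peak of 520 bp, at 375 and 239 bp. The optimal peaks at fne, at ChAT with VAChT and at nSyb were each exactly 520 bp wide, and how the caller set widths is not known.

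Both elav summits also lay within an intron of arg, the arginase gene, which overlaps elav on the opposite strand. Its nearest annotated start was 14042 bp from the upstream summit. The other neighbouring starts were further than that of elav as well: those of CG4293 and of Appl, the fly relative of the amyloid precursor protein gene, lay 6372 and 7024 bp away. A further optimal summit stood 3511 bp upstream of elav, outside the 2 kb window, at rank 1901. In replicates 1, 2 and 3 it ranked 1285, 1860 and 7185. It too was in the arg intron, 3112 bp from the nearest start, that of CG4293.

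The bases within 50 bp of each elav summit are shown because the pair differed in base composition as well as in strength. They are read from the plus strand of dm6, so that elav runs from right to left, with the summit at base 51. Capitals mark GAGAG, on either strand.
elav upstream, chrX:523427-523527: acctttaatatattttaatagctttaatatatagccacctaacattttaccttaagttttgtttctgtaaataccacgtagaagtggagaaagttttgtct
elav intron, chrX:522591-522691: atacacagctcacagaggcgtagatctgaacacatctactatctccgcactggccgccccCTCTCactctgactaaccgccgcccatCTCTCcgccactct
The upstream window had 27.7% G and C, and 20.8% of all optimal summit windows had less. The intronic window had 57.4%, and 98.4% of optimal windows had less. The intronic window held GAGAG at 2 places, a match that 9.73% of the 3823 optimal windows had at least once. The upstream window held none of the 6 motifs sought.

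The paralogs of elav had weaker summits, and none within 500 bp of a start. fne (FBgn0086675, X from 12917477 to 12950417, plus strand) carried 1 optimal summit at 12925997, in an intron 8513 bp downstream of its nearest start. It ranked 3347 of 3823, with a signal of 79.6, so it stood close to the lower edge of the set. In the replicates it ranked 3872, 4924 and 2702, below the 3823 strongest peaks in replicates 1 and 2 and among them in replicate 3. It follows from these ranks that the fne summit was not among the strongest 3823 of any 2 replicates. The summits of elav, ChAT with VAChT, and nSyb were among them in all 3.

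Rbp9 (FBgn0010263, 2L from 2954762 to 2968434, plus strand) had no optimal summit. Its strongest pooled relaxed peak had a summit at 2957829, in an intron 918 bp downstream of the nearest of its 3 starts, and ranked 4902. Its signal of 60.5 was 83.3% of that of the weakest optimal peak. It ranked 5028, 6680 and 3441 in replicates 1, 2 and 3, with summits 1, 18 and 39 bp from the pooled one. At both paralogs the strongest summit of every replicate stood at 1 intronic site, and both ranked highest in replicate 3. A strong optimal summit was close by Rbp9, at rank 419 and 4347 bp past its 3′ end, but it lay 110 bp from the start of gammaTub23C, a gamma-tubulin gene.

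The windows of the paralogs are shown beside those of elav for comparison, with GAGAG in capitals.
fne intron, chrX:12925947-12926047: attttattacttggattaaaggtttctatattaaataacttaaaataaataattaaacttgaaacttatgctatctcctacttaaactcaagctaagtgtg
Rbp9 intron, chr2L:2957779-2957879: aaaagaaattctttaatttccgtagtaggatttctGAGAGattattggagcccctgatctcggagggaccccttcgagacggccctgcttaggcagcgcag
The fne window had 22.8% G and C and held none of the 6 motifs. The Rbp9 window had 49.5%, more than in 91.4% of optimal windows, and held GAGAG once.

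ChAT and VAChT form one locus on 3R. VAChT (FBgn0270928, from 18705501 to 18718916, plus strand) lies within ChAT (FBgn0000303, from 18705501 to 18732344, plus strand), and both have their annotated start at the same base. The single optimal summit, at 18719936, lay 14435 bp downstream of this start. It was 1020 bp past the 3′ end of VAChT and inside an intron of ChAT, so both genes were counted through 1 summit. Its rank was 759 in the optimal set and 926, 682 and 891 in replicates 1, 2 and 3. The summit fell in the exon of the non-coding gene lncRNA:CR46265, 313 bp downstream of its start. The nearest protein-coding start was that of CG34283, 2654 bp away. No summit of the pooled relaxed list lay within 2 kb of the shared start: the next strongest of the 3 in the window, at rank 17595, was 10452 bp downstream of it in the 3′ UTR of VAChT.

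The window at the ChAT summit is shown because it held the TATAAA sequence, in capitals, on the minus strand.
ChAT intron, chr3R:18719886-18719986: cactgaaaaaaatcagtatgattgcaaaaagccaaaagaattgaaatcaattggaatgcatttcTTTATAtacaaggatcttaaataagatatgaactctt
It had 26.7% G and C, and 20.6% of optimal windows held TATAAA.

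The summit counted for nSyb lay nearer to the starts of its neighbours. nSyb (FBgn0013342, 3L from 1630348 to 1637752, minus strand) was counted through an optimal summit at 1639564, 1812 bp upstream of its nearest start and just inside the 2 kb window. The summit was 147 bp upstream of the start of Bgb, which encodes Big brother, the CBF-beta partner of Runx proteins, on the plus strand. It was 329 bp upstream of the start of Mettl2 on the minus strand, which lies between the summit and nSyb. It ranked 1453 in the optimal set and 1407, 2259 and 1209 in replicates 1, 2 and 3. No summit of the pooled relaxed list lay in the body of nSyb. The next strongest in the window, at rank 8039, was 963 bp past the 3′ end of the gene and 84 bp upstream of another neighbour. Where the window ended at 1 kb either side, nSyb held no optimal summit.

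The window between Bgb and Mettl2 is shown for comparison with the ChAT window, with TATAAA in capitals.
nSyb upstream, chr3L:1639514-1639614: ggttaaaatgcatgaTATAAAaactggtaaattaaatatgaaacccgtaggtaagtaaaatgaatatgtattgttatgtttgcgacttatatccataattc
It had 26.7% G and C, the same as the ChAT window, and TATAAA stood on the plus strand, 35 bp to the left of the summit.

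Syt1 (FBgn0004242, 2L from 2772327 to 2799979, minus strand) had its strongest pooled relaxed summit just upstream of its own start but below the optimal threshold. The summit, at 2800144, lay 165 bp upstream of the 5′ start and ranked 5841, with 73.4% of the signal of the weakest optimal peak. In replicates 1 and 2 the nearest summit ranked 4601 and 9453, 19 and 13 bp away. In replicate 3 it ranked 11798, 180 bp away. A second pooled summit stood 378 bp upstream of the start, at rank 9695. The replicate 3 summit at rank 11798 was nearer to this second one, 33 bp away. The strongest summit of replicate 3 in the window was elsewhere, 4408 bp downstream of the nearest start at rank 10174. No optimal summit lay within 5 kb of Syt1.

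The window at the Syt1 start is shown because its E-box CAGCTG, in capitals, covers the summit base.
Syt1 upstream, chr2L:2800094-2800194: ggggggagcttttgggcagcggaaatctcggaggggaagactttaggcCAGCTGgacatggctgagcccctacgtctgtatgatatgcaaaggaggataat
It had 54.5% G and C. CAGCTG was present in 4.89% of optimal windows, a set to which this window of a relaxed peak does not belong.

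In the pooled list, cpx and brp had the weakest best peaks of the 9 genes. In single replicates the order differed, with a best rank of 3443 at cpx in replicate 2 and of 3644 at brp in replicate 3. At cpx (FBgn0041605, 3R from 4280221 to 4304604, plus strand) the strongest pooled summit lay in an intron 76 bp upstream of 1 of its 8 starts, at rank 8601, and the nearest replicate summits ranked 7643, 18307 and 20171. Of all protein-coding genes 50.5% had a stronger best peak.

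At brp (FBgn0259246, 2R from 9503765 to 9541565, plus strand) the strongest pooled summit was 208 bp past the 3′ end of the gene, at rank 14764. It had a summit within 200 bp in replicate 3 alone, at rank 3644, and none in replicates 1 and 2. Of all protein-coding genes 63.0% had a stronger best peak, and of the longest quartile 83.5%. The longest of the 9 genes, with a span of 37801 bp, brp held 8 relaxed summits, and the strongest of those inside the gene ranked 17565. A summit at rank 8 of the optimal set lay 5624 bp past its 3′ end, 231 bp from the start of CG1888, and ranked 9, 12 and 8 in replicates 1, 2 and 3. That peak belongs to a neighbouring start by distance.

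**Figure D2:**
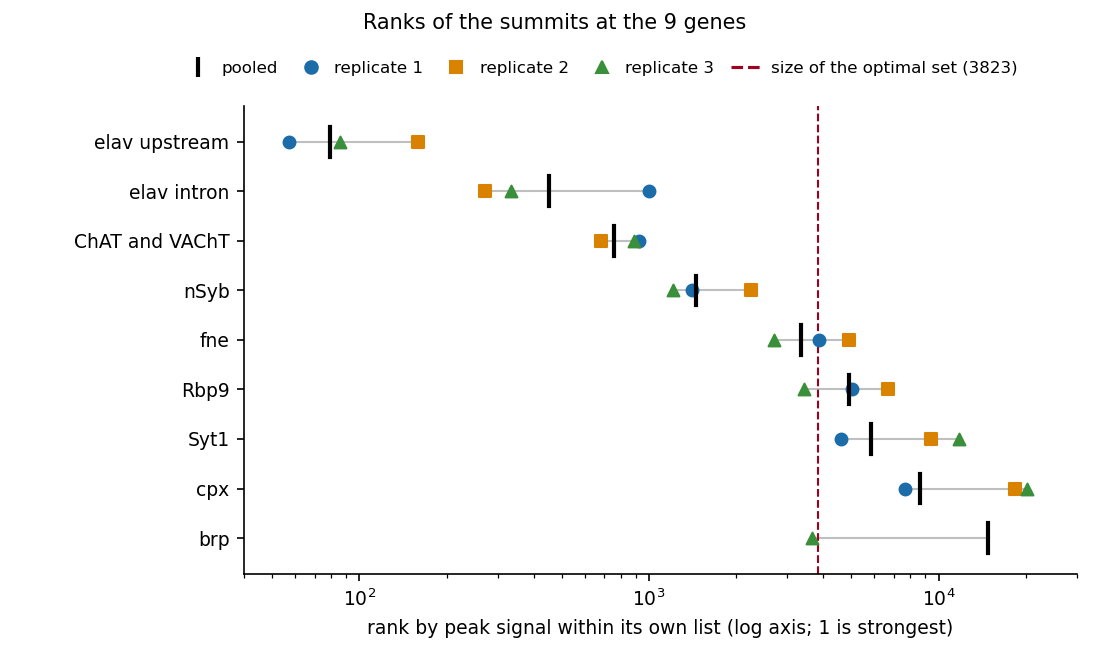
Ranks of the summits at the 9 genes on a log axis, with the black bar for the pooled rank and a symbol for the nearest summit within 200 bp in each replicate; the dashed line marks rank 3823, the size of the optimal set. The elav, ChAT with VAChT and nSyb summits lie left of the line in all 3 replicates, fne and Rbp9 straddle it, and brp has a summit in replicate 3 alone.

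The replicates placed their own strongest summit at the same site in 6 of the 9 genes, with ChAT and VAChT sharing a site. The optimal set was itself thresholded on reproducibility between replicates. In the 5 genes with an optimal summit, the strongest summits of the 3 replicates lay within 94 bp of each other, the widest spread being that of the ChAT and VAChT site. Among all genes with an optimal summit and a peak in every replicate, 77.0% had their 3 strongest summits within 200 bp. Of the 4 genes without an optimal summit, Rbp9 met this, with a spread of 38 bp, against 16.8% of the 5005 protein-coding genes without one that had a peak in every replicate. Among such genes whose best pooled peak ranked 3824 to 6000, as those of Rbp9 and Syt1 did, the share was 40.1%. Syt1 did not meet the rule. At ranks 6001 to 10000, as at cpx, the share was 15.3%, and at 10001 to 20000, as at brp, 5.38%. Most genes of those ranks thus had differing sites. At Syt1 replicates 1 and 2 had their strongest summits close together, at -184 and -178 bp from the 5′ end, and that of replicate 3 lay at 8843 bp, so that the range over the 3 was 9027 bp. At cpx and brp, where all 3 replicates differed in site, the range was 10634 and 37829 bp. In brp they stood 124, 12343 and 37953 bp downstream of the 5′ end in replicates 1, 2 and 3. The strongest cpx summit of replicate 2, at rank 3443, lay 4242 bp downstream of the nearest start, where replicates 1 and 3 did not have their strongest summits.

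**Figure D3:**
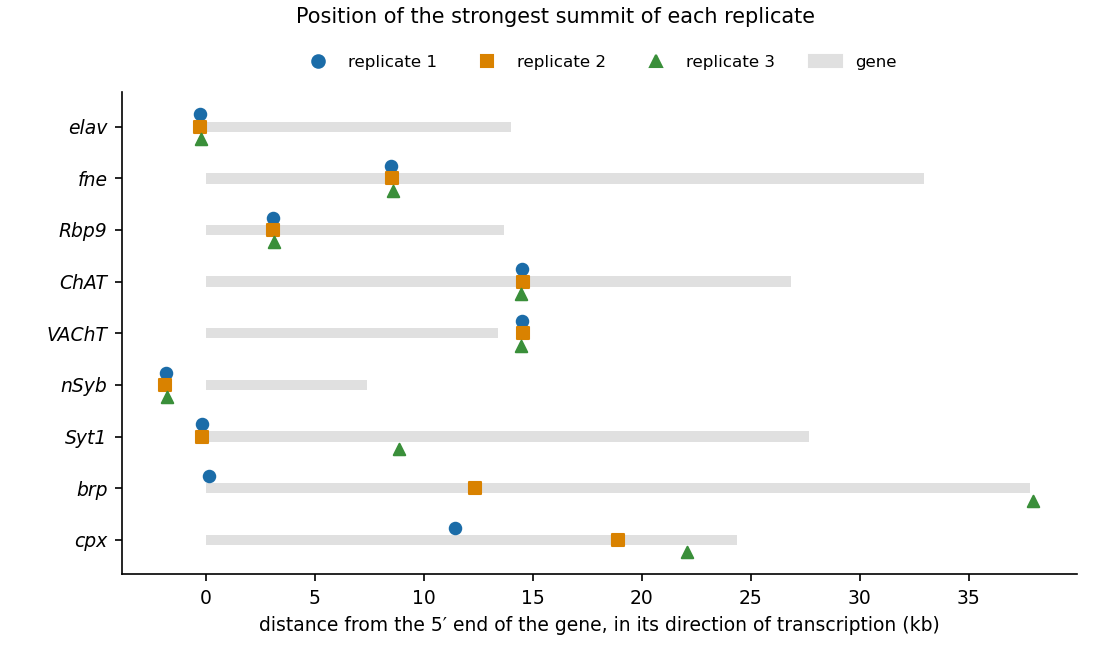
Position of the strongest summit of each replicate in each gene and 2 kb either side, in kb from the 5′ end on the x axis, with grey bars for the genes. The 3 symbols coincide at elav, fne, Rbp9, ChAT, VAChT and nSyb and are all apart at brp and cpx; at Syt1 replicates 1 and 2 coincide and replicate 3 is apart.

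The base composition of the windows varied widely. Of the 5 optimal windows, 4 had 22.8% to 27.7% G and C, below the median of 33.7% over all optimal windows, and the intronic elav window was the exception at 57.4%. Of the 4 genes without an optimal summit, the strongest relaxed windows at Rbp9, Syt1 and cpx had 49.5%, 54.5% and 63.4%, and that at brp 33.7%. Over the pooled list the median was 36.6% at ranks 3824 to 6000 and 39.6% at ranks 6001 to 15000. The DREF site TATCGATA, the paired-domain core GTCACGC and motif 1 of core promoters were in none of these 9 windows. They were rare over all optimal windows too, at 2.01%, 0.366% and 0.889%, so their absence from so few windows says only that these letters were not there.

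Of the other genes listed, a smaller share held a summit than of protein-coding genes in general. The lists are of neuronal genes, apart from Sxl and ssx. These were listed as RNA-recognition-motif relatives of ELAV, and both held a summit, which raises the share. In 9 lists of 84 genes that are not among the 9 described above, 15 held an optimal summit in the gene or 2 kb either side (17.9%, against 32.8% of all protein-coding genes). The replicates gave 15.5%, 22.6% and 25.0% with their own 3823 strongest peaks (mean 21.0% ± 4.96, SD, n = 3), against 31.4%, 32.5% and 33.6% of all protein-coding genes. Within the longest quartile of genes, 13 of 68 listed genes held one (19.1%, against 47.2%). These counts were not tested, and the lists were written with earlier results of these data known. Of the 20 summits at these genes, 10 had the gene's own start as the nearest. Of the 15 genes, 9 (60.0%) had such a summit, close to the 56.3% of all genes with a summit.

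Transmitter synthesis and transport genes held no optimal summit at any of 14, among them VGlut, Gad1, ple and SerT. The strongest peak at SerT ranked 3860 in the pooled relaxed list, just below the lower edge of the optimal set. The absence of a summit at SerT thus depends on where the set was cut. The next strongest of the 14, at Ddc, ranked 6265. The 8 active zone genes, among them cac and Rim, held none either, and their strongest peak, at Liprin-alpha, ranked 4581 in the pooled relaxed list. Of 13 acetylcholine receptor genes 3 held one. That of nAChRalpha5 (rank 805) was 220 bp from the start of NimC4, a Nimrod-family gene, and those of the muscarinic receptor genes mAChR-A (rank 3567) and mAChR-B (rank 3573) were intronic, near the lower edge of the set. Ranks of the listed genes with an optimal summit are those of the optimal set, and single replicates differed. The mAChR-A summit ranked 3936, 16404 and 2811 in replicates 1, 2 and 3, and that of mAChR-B 10093, 2733 and 3754. Of 12 fusion genes, Syx1A, the syntaxin gene, held one 645 bp upstream of its start (rank 2201), and Tomosyn held 3. The strongest of these (rank 2459) was 45 bp from the start of CG2540, that at rank 2777 was 77 bp from the start of CkIalpha, and that at rank 3799 was 131 bp from the start of Tomosyn itself. For the summit at rank 3799, replicate 2 had none within 200 bp. Of 7 other synaptotagmin genes 2 held summits. Esyt2 held 3, of which those at ranks 313 and 2608 were 237 and 58 bp from a start of Cftr. That at rank 1685 was intergenic, outside Esyt2 but within 2 kb of it. It had the start of Esyt2 as the nearest, 8089 bp away. The summit at Sytbeta (rank 1030) was 63 bp from the start of Reck. In the vesicle recycling list 1 of 9 held one, Syn (synapsin), in an intron at rank 1869 and 585 bp from the start of Timp, a metalloproteinase inhibitor gene nested in it.

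Of 9 excitability genes 3 held a summit, and at each of them a neighbour had the nearest start. For sei, an ERG-type potassium channel gene, the summit at rank 1032 was at -162 bp from its own start and 138 bp from that of gammaSnap1. For tipE (rank 2544) it was that of VhaM9.7-c, and for the potassium channel gene Shal (rank 3542) that of CG9330. Replicate 3 had no summit within 200 bp of that at Shal. Neuronal regulator and adhesion genes had 2 of 10 with a summit. These were Nrx-1, which encodes neurexin, 108 bp downstream of its start at rank 1197, and scrt, a neuronal zinc finger gene, 321 bp upstream of its start at rank 1797. The RNA-recognition-motif relatives of ELAV both had summits at their own starts. Sxl, the sex determination gene, held 2, in introns 371 and 1359 bp downstream of a start (ranks 990 and 1717), and its paralog ssx held 1, 316 bp upstream of its start (rank 2301). elav had summits 251 and 585 bp from a start of its own. The fne summit also had its own start as the nearest, but 8513 bp away, and Rbp9 had no optimal summit.

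**Figure D4:**
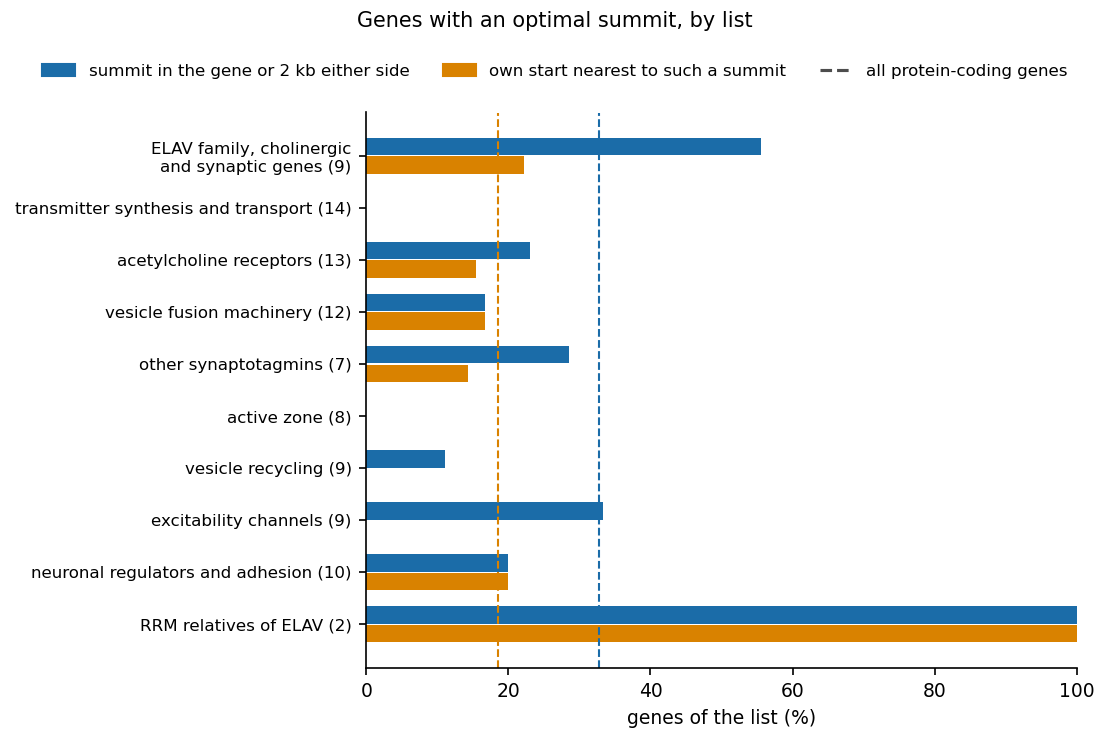
Share of genes with an optimal summit for the 9 genes and the 9 other lists, with the number of genes in brackets. Blue bars count any summit in the gene or 2 kb either side, and orange bars those with the gene's own start nearest. Dashed lines give the same shares of all protein-coding genes (32.8% and 18.5%). Of the 9 other lists, 2 have no bar and 1, of 2 genes, reaches the full width.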

How the data were processed

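The authors deposited narrowPeak lists per build (dm6 and dm3): an optimal set, a pooled relaxed list and a relaxed list per replicate. Per the deposited manifests, the replicate and pooled lists came from the replicates' alignments with the same control alignment, and the optimal set from those lists. The signal of each peak is the authors' own value. Scaling, caller, threshold and read depth: not given in the sources used here, so signal served for ranks and ratios within a list and no counting interval is given. The antibody field names sv, but the descriptions, which were followed, state anti-GFP. The control was not analysed here, and the dm3 lists were not used here because genes could not be placed on them.

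Summits were placed on the Ensembl release 115 annotation (BDGP6.54), whose coordinates were those of RefSeq for all 9 genes, and windows were read from the NCBI Release 6 genome. Positions count from 1. Replicate ranks are those of the nearest summit within 200 bp. The motifs sought on both strands were TATCGATA (the DREF site), then GTCACGC (the paired-domain core), GAGAG as such, the E-box CAGCTG and, apart from these, TATAAA, with motif 1 by name. Of 84 listed names, 83 matched by symbol and 1 by synonym. Named genes are the 9, the genes with the start nearest to their summits, and up to 3 genes per other list by rank; the genes named for having no summit, those beyond the window, the site comparison between replicates and its rank bands were chosen after values were seen. The members and lists were chosen with earlier results of these data known. Counting steps were tested on simulated data. Python 3.11.15 and pandas 2.3.3 were used.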

Additional observations from a re-analysis of the deposited data

How the results depend on the processing

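The count of 5 of the 9 genes with an optimal summit depended on the window. It was 3 with the gene body alone or 1 kb either side (elav, fne and ChAT), 2 where the nearest start had to be the gene's own, 1 within 500 bp of a start, and 7 with 5 kb either side, which added Rbp9 and brp. It was 4 among the 1911 strongest optimal peaks and without each replicate, fne being lost in each case. With the strongest peaks of replicates 1, 2 and 3 it was 4, 5 and 7. The 5 genes of replicate 2 were not the main 5, since they held cpx and lacked fne. The 7 of replicate 3 were the main 5 with Rbp9 and brp. The share of all protein-coding genes was 32.8% in the main setting and 27.5% with 1 kb either side. Without replicates 1, 2 and 3 in turn that share was 25.4%, 25.5% and 25.6%, and with the strongest peaks of each it was 31.4%, 32.5% and 33.6%. The 5 optimal summits at these genes became 3 with the gene body alone and 8 with 5 kb either side, which takes in further summits. Of the 84 other listed genes, the 15 with a summit became 7 with the gene body alone and 29 with 5 kb either side. They were 6 within 500 bp of a start (7.14%), 9 with their own start nearest (10.7%) and 8 among the 1911 strongest peaks. The share of all protein-coding genes moved with them, to 9.94%, 45.5%, 19.5%, 18.5% and 19.9%. With the gene body alone, 7 of 84 was close to the 9.94% of all genes. The gap of the main setting, 17.9% against 32.8%, was thus mostly absent there. Of the 5 optimal summits, 3 had a motif match within 50 bp and 4 within 100 bp, all to GAGAG or TATAAA. Of all optimal summits, 9.73% had GAGAG and 20.6% TATAAA within 50 bp, and 22.8% and 37.0% within 100 bp. The share with any of the 6 motifs was not computed. The strongest pooled peak near Rbp9 ranked 419 and near brp 3714 with 5 kb either side, both nearest to a neighbour's start, and Syt1 ranked 22416 in the gene body alone. No paired analysis was possible because there is 1 group. Read depth is unknown.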
